A study of Mus musculus with 5 samples.

Results

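The 10 genes followed here serve antigen presentation by the major histocompatibility complex (MHC), in macrophages through a time course of bacterial lipopolysaccharide (LPS). They were 6 class I genes (B2m, H2-K1, H2-D1, H2-Q8, Tap1 and Tapbp) and 4 class II genes (H2-Aa, H2-Ab1, H2-Eb1 and Cd74). A gene counted as measured when at least 1 probe carried its symbol alone in the platform annotation and had a value on all 5 arrays. By this rule 7 of the 10 were measured, with 4 in class I and 3 in class II, out of 8452 named genes. No probe carried H2-K1, Tap1 or H2-Ab1 as its single symbol, so these 3 genes have no value here. The 7 measured genes had 10 such probes, of which 3 belonged to B2m, 2 to H2-Aa and 1 to each of the others.

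The macrophages were grown from bone marrow of C3H/HeJ mice with human CSF-1, which drives macrophage growth, and were left without LPS (0 h) or exposed to 10 µg per ml LPS of S. minnesota for 0.5, 2, 7 or 21 h. C3H/HeJ mice carry a mutation in Tlr4, the LPS receptor, in every group including the 0 h control. Each time was measured on 1 cDNA array together with RNA of whole C57BL6/J embryos of 17.5 days, and all 5 arrays shared this reference. With 1 array per time no difference has a replicate check, no test was possible and none was run. The labels do not say whether the times came from separate cultures or animals.

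Class I molecules show peptides made inside the cell. Proteasomes cut the peptides, the TAP transporter carries them into the endoplasmic reticulum, tapasin (Tapbp) holds the transporter beside an empty heavy chain, and the heavy chain leaves for the surface with beta-2 microglobulin (B2m) and its peptide. Class II molecules show peptides taken up from outside: an alpha and a beta chain are held by the invariant chain (Cd74) until it is digested in endosomes. Class I is made by nearly all nucleated cells, and class II mainly by B cells, dendritic cells and activated macrophages, where interferon gamma raises it through the co-activator Ciita. The MHC of mouse, called H2, differs between strains: C3H/HeJ carries the H2-k haplotype and C57BL6/J the H2-b haplotype, so the cells and the embryo reference on each array were of different haplotypes. Classical class I heavy chains and their Q region relatives are close in sequence, so a cDNA probe for H2-D1 or H2-Q8 can also bind transcripts of the other family members. The values of these 2 probes are uncertain in that sense.

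Promoters of members were set side by side because class I and class II genes share a known promoter layout. In it an X2 box (cAMP response element-like, searched as TGACG) lies upstream of a Y box. The Y box, bound by NF-Y, was searched as ATTGG, the reverse complement of CCAAT. The 5 windows are RefSeq sequence of assembly GRCm38.p6, from 180 to 31 bases before the annotated start on the strand of the gene. They come from the reference genome and not from the C3H/HeJ cells. Capitals mark TGACG and ATTGG, an interferon regulatory factor core (AANNGAAA) and an NF-kB site (GGGGATTCC), on either strand. The windows are B2m at chr2:122147507-122147656 (plus strand), H2-D1 at chr17:35262914-35263063 (plus), Tapbp at chr17:33919298-33919447 (plus), H2-Aa at chr17:34287854-34288003 (minus) and H2-Eb1 at chr17:34305687-34305836 (plus).
B2m: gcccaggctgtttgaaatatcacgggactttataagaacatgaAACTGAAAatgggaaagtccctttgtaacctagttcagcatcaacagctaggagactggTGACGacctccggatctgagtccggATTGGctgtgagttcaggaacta
H2-D1: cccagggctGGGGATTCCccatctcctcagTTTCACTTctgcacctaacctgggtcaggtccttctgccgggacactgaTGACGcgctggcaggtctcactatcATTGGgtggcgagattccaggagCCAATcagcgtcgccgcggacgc
Tapbp: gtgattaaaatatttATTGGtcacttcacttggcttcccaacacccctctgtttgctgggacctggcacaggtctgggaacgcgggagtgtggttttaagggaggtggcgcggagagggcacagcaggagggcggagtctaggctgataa
H2-Aa: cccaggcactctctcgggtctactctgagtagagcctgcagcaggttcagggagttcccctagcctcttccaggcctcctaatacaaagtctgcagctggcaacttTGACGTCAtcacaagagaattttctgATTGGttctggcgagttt
H2-Eb1: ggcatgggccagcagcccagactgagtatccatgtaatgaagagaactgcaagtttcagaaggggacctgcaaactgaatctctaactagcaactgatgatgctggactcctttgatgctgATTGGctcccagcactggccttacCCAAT

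These 5 were picked from the 7 listed members with a promoter sequence. The rest were not searched, so the counts below hold for these 5 alone. TGACG followed on the same strand by ATTGG, with starts 20 to 30 bases apart, stood in 3 of these 5 promoters, on both sides of the class divide. The pair lay at 78 and 53 bases before the start in B2m, at 101 and 76 in H2-D1, and at 74 and 48 in H2-Aa. This pair stood in 0.435% of 32851 RefSeq promoters, taken from 250 bases before to 50 after the start, while ATTGG alone stood in 37.4% and TGACG alone in 20.8%. In H2-Aa the TGACG matches on both strands overlap as TGACGTCA. H2-Eb1 held ATTGG at 59 bases before the start but no TGACG in that span, and Tapbp held ATTGG without the pair. In the same span AANNGAAA stood in 3 of the 5, in B2m, in H2-D1 on the opposite strand and in H2-Aa at 213 bases before the start, outside its printed window, against 23.9% of all promoters. GGGGATTCC stood in H2-D1, against 0.25%. A match is a description of these letters and not evidence of binding.

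Values are log ratios of macrophage over embryo, read as base 10, after centring each array on the median of all 8452 genes. They compare a gene with itself in embryo RNA, so a high ratio is not a high transcript level, and fewer cells of a type and less RNA per cell cannot be told apart. Neither the base nor the direction of the ratio is stated in the sources used here. Macrophage over embryo was taken as the likely direction from the 0 h array, where 8.99% of all genes were at least 2-fold higher and 8.9% lower. On it 5 of 8 measured macrophage markers were higher and none lower, while 7 of 10 embryonic blood and liver genes were lower and none higher. Cd68 (-0.16), Marco (-0.06) and Tyrobp (-0.05) were the 3 macrophage markers below 0. The 0.5 h array stood apart: across probes it correlated with the 0 h array at 0.48, against 0.75 to 0.85 for the later arrays. In the stretches of 400 probe numbers around B2m probes 4183 and 7305, H2-D1 and H2-Aa probe 11394, it correlated at 0.79 to 0.83 with the mean of the other arrays. Around the other 6 member probes this correlation was -0.08 to 0.41, so results are given with and without this array. As a measure of error, the SD between probes that share a gene, pooled over 2968 genes, was 0.24 for a ratio at 0 h and 0.16 to 0.19 for a difference of a later array from 0 h, and 0.48 for a difference at 0.5 h. This SD holds no spread between cultures or hybridisations.

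At 0 h all 4 class I genes stood far above embryo, while no class II gene differed from embryo by 2-fold. The mean log ratio was 0.87 for class I and 0.06 for class II, a difference of 0.81 or 6.47-fold. A 2-fold difference is 0.30 on this scale. By that rule 4 of 4 class I genes and 0 of 3 class II genes were higher at 0 h, where 8.99% of all genes were higher and 8.9% lower. Were the values base 2, only H2-Q8 would pass that rule at 0 h, 1 of the 7 genes. The share of all genes past it on that reading was not computed. The ranges did not overlap on any of the 5 arrays: at 0 h class I lay between 0.59 and 1.06 and class II between 0.05 and 0.08.

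B2m, the light chain shared by all class I molecules, had log ratios of 0.88, 0.79, 0.89, 1.06 and 1.08 at 0, 0.5, 2, 7 and 21 h, as the mean of 3 probes with an SD between them of 0.07 to 0.16. These are 7.57-fold above embryo at 0 h and 11.97-fold at 21 h. B2m ranked 34 from the highest of 8452 genes at 0 h and 18 at 21 h. Its 3 probes read 0.79, 0.93 and 0.93 at 0 h, a spread small beside their height, and their lowest reading on any array was 0.75.

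H2-D1, a classical heavy chain, had log ratios of 0.96, 0.94, 0.997, 1.02 and 0.91 at 0, 0.5, 2, 7 and 21 h. Its 5 arrays were the closest together of the 7 genes, and it stood 9.19-fold above embryo at 0 h. H2-Q8, a heavy chain gene of the Q region, had the highest ratio of the 7 genes on every array, with 1.06, 1.33, 1.45, 1.31 and 1.12 in the same order of times. It stood 11.6-fold above embryo at 0 h and 28.1-fold at 2 h. Tapbp, the peptide loading factor tapasin, had the lowest ratio of class I on every array but that at 0.5 h, with 0.59, 1.13, 0.68, 0.73 and 0.65 in that order. At 0 h B2m, H2-D1 and H2-Q8 lay within the pooled SD between probes (0.24) of each other, and Tapbp lay further than that from B2m. This SD is of a single probe value and not of a difference between genes, so it does not set Tapbp apart.

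H2-Aa, the alpha chain of I-A, had log ratios of 0.05, -0.12, 0.31, 0.01 and -0.16 at 0, 0.5, 2, 7 and 21 h on probe 11394, the one with a value on all arrays. Its other probe, 7905, read 0.39, -0.04, 0.36 and -0.10 at 0, 0.5, 2 and 21 h and had no value at 7 h. The probes thus differed most at 0 h, where the second alone was past 2-fold, and both were below 0 at 0.5 and 21 h. H2-Eb1, the beta chain of I-E, had log ratios of 0.06, -0.31, -0.32, 0.25 and -0.10 in the same order of times. Cd74, the invariant chain, had log ratios of 0.08, -0.26, 0.19, -0.05 and 0.09 in that order. No class II gene kept one sign over all 5 arrays, and the 3 differed at 0 h by less than the SD between probes. H2-Aa, H2-Eb1 and Cd74 ranked 3369, 3203 and 2832 from the highest of 8452 genes at 0 h, in the middle of the array.

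**Figure D1:**
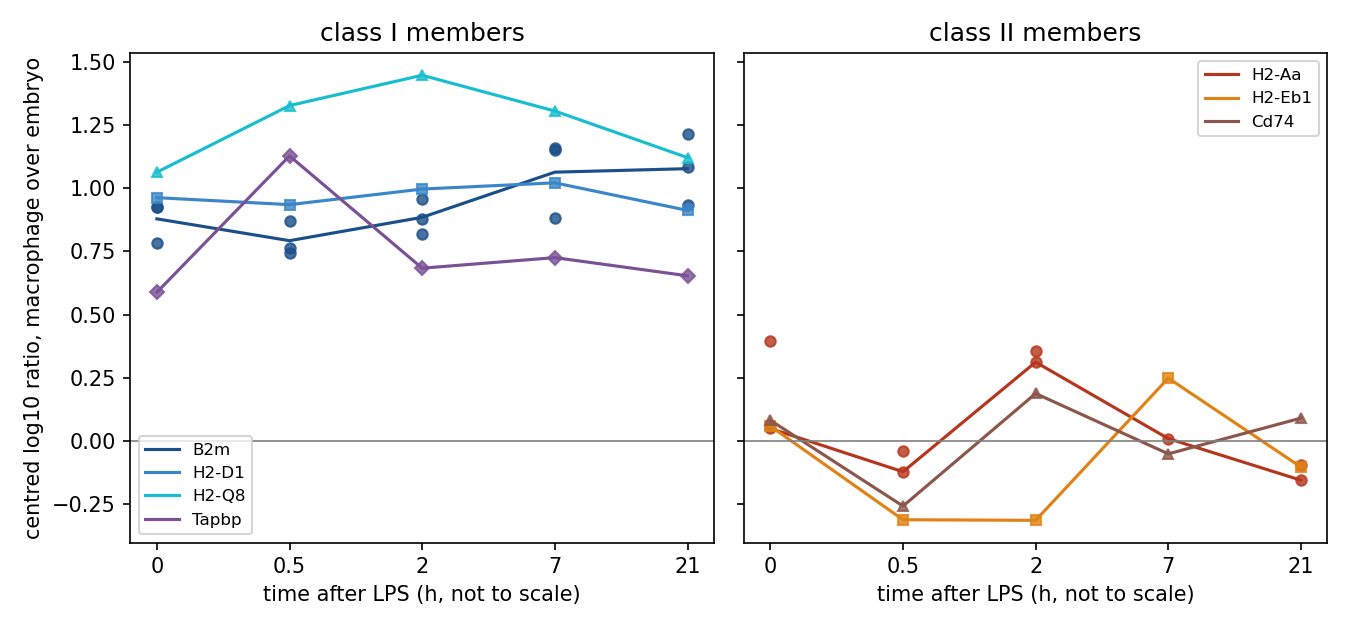
Centred log10 ratio of macrophage over embryo on the 5 arrays, with hours of LPS on an x axis that is not to scale and class I and class II in separate panels; lines join the values of each gene and points are its probes. The class I lines lie between 0.59 and 1.45 and the class II lines between -0.32 and 0.31, while the second H2-Aa probe lies at 0.39 at 0 h.

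**Figure D2:**
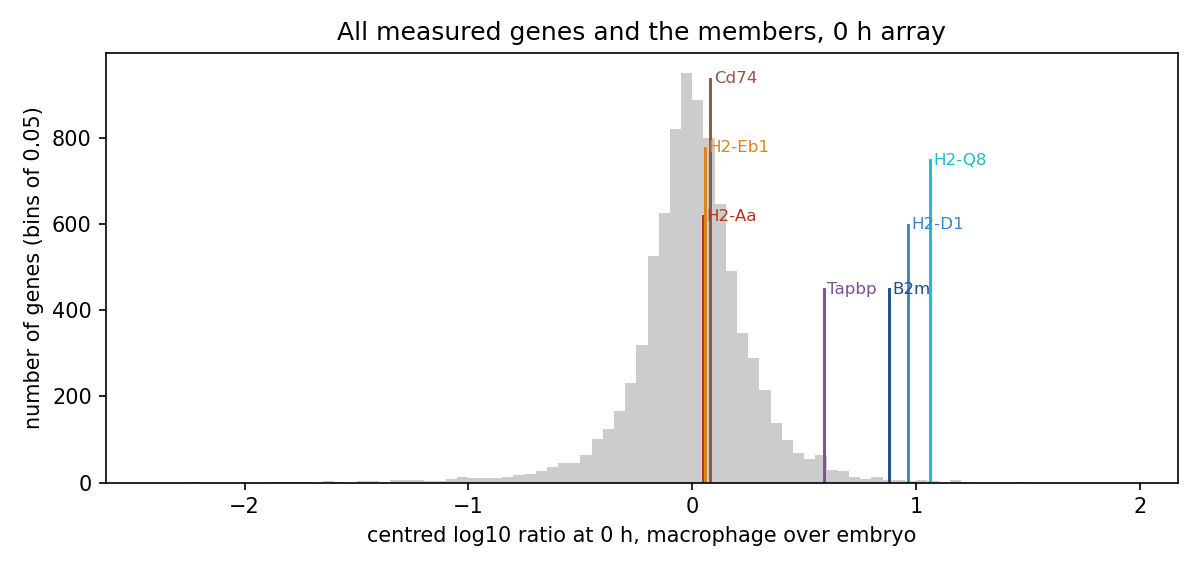
Number of genes by centred log10 ratio of macrophage over embryo at 0 h, for 8452 genes in bins of 0.05, with a vertical line for each of the 4 class I and 3 class II genes; line heights carry no value. Class I lies in the upper tail between 0.59 and 1.06, and class II near the centre between 0.05 and 0.08.

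The gap between the classes stayed through the time course. The class I mean was 0.87, 1.05, 1.004, 1.03 and 0.94 at 0, 0.5, 2, 7 and 21 h, and the class II mean was 0.06, -0.23, 0.06, 0.07 and -0.06. Class I minus class II was therefore 0.81, 1.28, 0.94, 0.96 and 0.999 on the 5 arrays, or 6.47-, 19.0-, 8.76-, 9.15- and 9.97-fold. Without the 0.5 h array the range was 0.81 to 0.999. With the second H2-Aa probe added, the gap was 0.75 at 0 h and 0.99 at 21 h. Without Tapbp, the 3 class I molecules alone stood 0.91 above class II at 0 h and 1.09 at 21 h.

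By the 2-fold rule, all 4 class I genes were above embryo on each later array too. The shares of all genes higher and lower were 23.4% and 17% at 0.5 h, 13.4% and 12.9% at 2 h, 12.6% and 8.02% at 7 h, and 9.67% and 9.12% at 21 h. Of the 3 class II genes, H2-Eb1 was lower at 0.5 and 2 h, H2-Aa was higher at 2 h on an array where 13.4% of genes were, and none was past the rule at 7 or 21 h. At 2 h the class II count was thus 1 of 3 higher and 1 of 3 lower, in opposite directions, and at 0.5 h 1 of 3 lower.

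At 2, 7 and 21 h the class means differed from 0 h by less than the gap between the classes, and single members moved apart from their class. All comparisons below share the 0 h array, so an error of that array enters each of them. Class I differed from 0 h by 0.17, 0.13, 0.16 and 0.07 at 0.5, 2, 7 and 21 h, and class II by -0.29, 0.00, 0.01 and -0.12. Class I minus class II differed from 0 h by 0.47, 0.13, 0.15 and 0.19. The sign turned at 0.5, 2 and 7 h after quantile normalization or removal of a trend on the mean ratio. At 0.5 and 2 h it also turned after scaling arrays to one spread. At 2 h it also turned with the median over genes (-0.04) and with the probes in stretches where the 0.5 h array followed the others (-0.25). Those stretches leave only B2m and H2-D1 in class I and H2-Aa in class II. At 21 h 12 of 13 alternatives stayed above 0. The other took the 0.5 h array as baseline, which made the values at 2, 7 and 21 h negative. That is a difference from 0.5 h and not from 0 h, and its sign was fixed because the gap was largest at 0.5 h.

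At 2 h, 1 member was higher by 2-fold and 1 lower, where 4.24% of all genes were higher and 2.58% lower. H2-Q8 was 0.38 higher than at 0 h (2.42-fold), rank 216 from the highest, though this difference was -0.21 after quantile normalization and -0.074 after removal of a trend on the mean ratio. H2-Eb1 was 0.37 lower, a difference of -0.37 and rank 126 from the lowest. It stayed negative under the 9 alternatives run for it, between -0.38 and -0.31. It rests on 1 probe, so other ways to join probes or to centre could move it little. The 0.5 h array as baseline was not run for single genes. Against embryo, H2-Eb1 read nearly the same at 0.5 h (-0.31) as at 2 h (-0.32). The other differences at 2 h were 0.01 ± 0.05 (SD over 3 probes) for B2m, 0.03 for H2-D1, 0.10 for Tapbp, 0.11 for Cd74 and 0.26 for H2-Aa. Those of B2m, H2-D1 and Tapbp changed sign under quantile normalization or another rescaling of the arrays, and the second H2-Aa probe differed by -0.04.

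At 7 h no member was past the rule, where 3.35% of all genes were higher and 1.4% lower. B2m differed by 0.18 ± 0.08 (SD over 3 probes), with all 3 probes above their 0 h value (0.10, 0.23 and 0.22), but quantile normalization turned the difference to -0.13. H2-Q8 differed by 0.24, H2-Eb1 by 0.19, Tapbp by 0.14 and H2-D1 by 0.06, and of these only H2-Eb1 kept its sign under every alternative run. Cd74 differed by -0.13 and H2-Aa by -0.04.

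At 21 h no member was past the rule either, where 4.33% of all genes were higher and 4.69% lower. B2m differed by 0.20 ± 0.17 (SD over 3 probes), with probes at 0.30, 0.01 and 0.29, and was above 0 under all 10 alternatives, between 0.12 and 0.33. H2-D1 differed by -0.05, H2-Q8 by 0.06 and Tapbp by 0.07, all less than the SD between probes of 0.19 at this time. H2-Aa differed by -0.20 on one probe and by -0.49 on the other, so that with both probes it would be lower by 2-fold. H2-Eb1 differed by -0.16 and Cd74 by 0.01.

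At 0.5 h Tapbp was 0.54 higher while H2-Eb1 (-0.37) and Cd74 (-0.34) were lower by 2-fold, on an array where 19.9% of all genes were higher and 10.6% lower. All 3 probes lie in stretches that did not follow the other arrays, and the Tapbp difference was 0.032 with arrays scaled to one spread, -0.14 after quantile normalization and -0.76 after removal of the trend. H2-Eb1 and Cd74 kept their sign in these 3 settings but came within 2-fold, at -0.23, -0.29 and -0.29 for H2-Eb1 and -0.22, -0.28 and -0.27 for Cd74. The probes of Tapbp and H2-Eb1 have neighbouring numbers, 9733 and 9734, and differed from 0 h in opposite directions. In stretches that did follow, the differences at 0.5 h were -0.02 and -0.18 for B2m probes 4183 and 7305, -0.03 for H2-D1 and -0.17 for H2-Aa probe 11394. After quantile normalization and removal of the trend, however, B2m differed by -0.81 and -1.35 and H2-D1 by -0.85 and -1.49. H2-Q8, also outside those stretches, differed by 0.26, and by -0.33, -0.87 and -1.64 with one spread, quantile normalization and removal of the trend. The size and, for H2-Q8 and Tapbp, the direction of the class I differences at 0.5 h thus depended on the scaling. The small H2-D1 difference also changed sign, to 0.013, without centring.

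**Figure D3:**
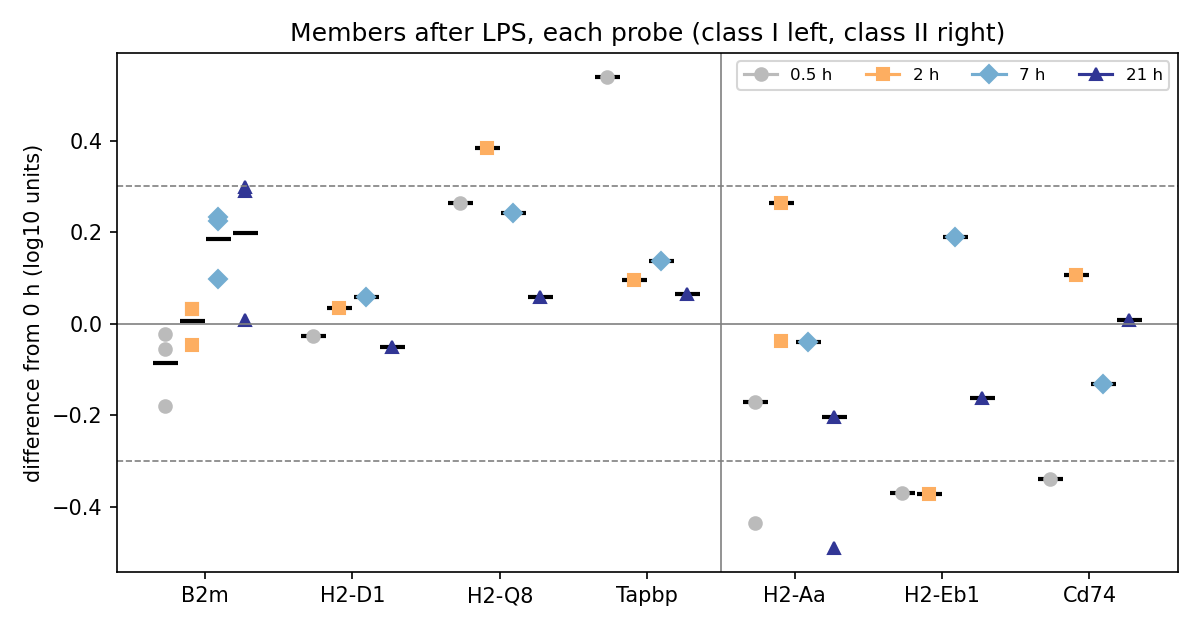
Difference of the centred log10 ratio from the 0 h array at 0.5, 2, 7 and 21 h, with a point for each probe, a bar at the value of the gene and dashed lines at the 2-fold rule (0.30). H2-Q8 (0.38) and H2-Eb1 (-0.37) pass it at 2 h and no gene value passes it at 7 or 21 h, though the second H2-Aa probe reads -0.49 at 21 h; the H2-Q8 difference turns to -0.21 after quantile normalization and to -0.074 after removal of a trend on the mean ratio.

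Of 20 other genes of the class I pathway, 16 were measured and 5 were at least 2-fold higher than embryo at 0 h, with none lower and a median of 0.19, where 8.99% of all genes were higher and 8.9% lower. These 5 were the immunoproteasome subunits Psmb9 (0.72 ± 0.21, SD over 2 probes), Psmb8 (0.70 ± 0.18, SD over 7 probes) and Psmb10 (0.57), the proteasome activator subunit Psme2 (0.41 ± 0.23, SD over 2 probes) and the transporter subunit Tap2 (0.39). Psme1 and Psme3, also activator subunits, read 0.28 and 0.09, and the lowest of the 16 were the translocon subunit Sec61g (-0.25) and the aminopeptidase Npepps (-0.20). Of 26 other class I family genes only 3 were measured: H2-Q10, a secreted class I molecule made in liver, at 0.70, Hfe, a regulator of iron uptake, at 0.18, and Fcgrt, the neonatal Fc receptor, at -0.01. The H2-Q10 value rests on 1 probe. As for H2-D1 and H2-Q8, this probe can also bind transcripts of other family members, so the value is uncertain in the same sense.

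Over time Psmb9 differed from 0 h by 0.43 ± 0.45, 0.41 ± 0.26 and -0.38 ± 0.16 at 2, 7 and 21 h (SD over 2 probes), so its probes disagreed at 2 h by as much as they moved. Psme2 differed by 0.48 ± 0.80 and 0.64 ± 0.59 at 2 and 7 h, with the same limit. Psmb10 was 0.33 higher at 2 h on its 1 probe. These were the 3 list genes higher at 2 h, the 2 higher at 7 h and the 1 lower at 21 h among 16, where 4.24%, 3.35% and 4.69% of all genes were, with list medians of -0.00, 0.10 and 0.04. Psmb8, with 7 probes, differed by 0.05, 0.18 and -0.02 at 2, 7 and 21 h.

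Around class II, the peptide exchange factor subunits H2-DMa (0.03, 2 probes) and H2-DMb2 (-0.04) were the 2 of 9 other class II molecules measured on every array. At 0 h neither was past 2-fold. H2-DMa was 2-fold below embryo at 2 h (-0.31), a difference from 0 h of -0.34, but its probes differed from each other there with an SD of 0.58. H2-DMb1, without a value at 0.5 h, read 0.23, 0.08, 0.41 and -0.06 at 0, 2, 7 and 21 h, past 2-fold at 7 h alone. Of 21 other genes of class II processing and control, 10 were measured, with 2 higher than embryo at 0 h, 1 lower and a median of 0.07, where 8.99% of all genes were higher and 8.9% lower. The protease inhibitor Cst3 (0.62, 6 probes) and the lysosomal protease Ctsl (0.60, 4 probes) were the 2 higher, and Nfyb, a subunit of the Y box factor, was lower at -0.31. The lysosomal proteases Ctsb (-0.11) and Ctsh (-0.01) and the thiol reductase Ifi30 (0.09) were within 2-fold. None of the 10 differed from 0 h by 2-fold at 2, 7 or 21 h. Of all genes, 4.24%, 3.35% and 4.33% were higher and 2.58%, 1.4% and 4.69% lower at these times. With 10 genes the count is near those shares. Rfxank, of the same list but without a value at 7 h, was past 2-fold lower at 21 h on its 1 probe. It read 0.16, 0.07, 0.12 and -0.34 against embryo at 0, 0.5, 2 and 21 h, a difference from 0 h of -0.50 at 21 h.

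Ctss, the protease that trims the invariant chain, had no value at 0.5 h but the highest ratios of the class II pathway, with 1.78, 1.67, 1.899 and 1.302 at 0, 2, 7 and 21 h. It was thus far above embryo on all 4 arrays that measured it, and -0.48 from 0 h at 21 h. Among 15 interferon pathway regulators 6 were measured. Irf7, an inducer of type I interferon genes, was the 1 higher than embryo at 0 h (0.76), where 8.99% of all genes were, and differed from 0 h by 0.72 ± 0.45 at 2 h (SD over 2 probes). The kinase Jak1 (0.36) and the transcription factor Stat2 (0.31) were 2 of 6 higher than at 0 h at 21 h, where 4.33% of all genes were.

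**Figure D4:**
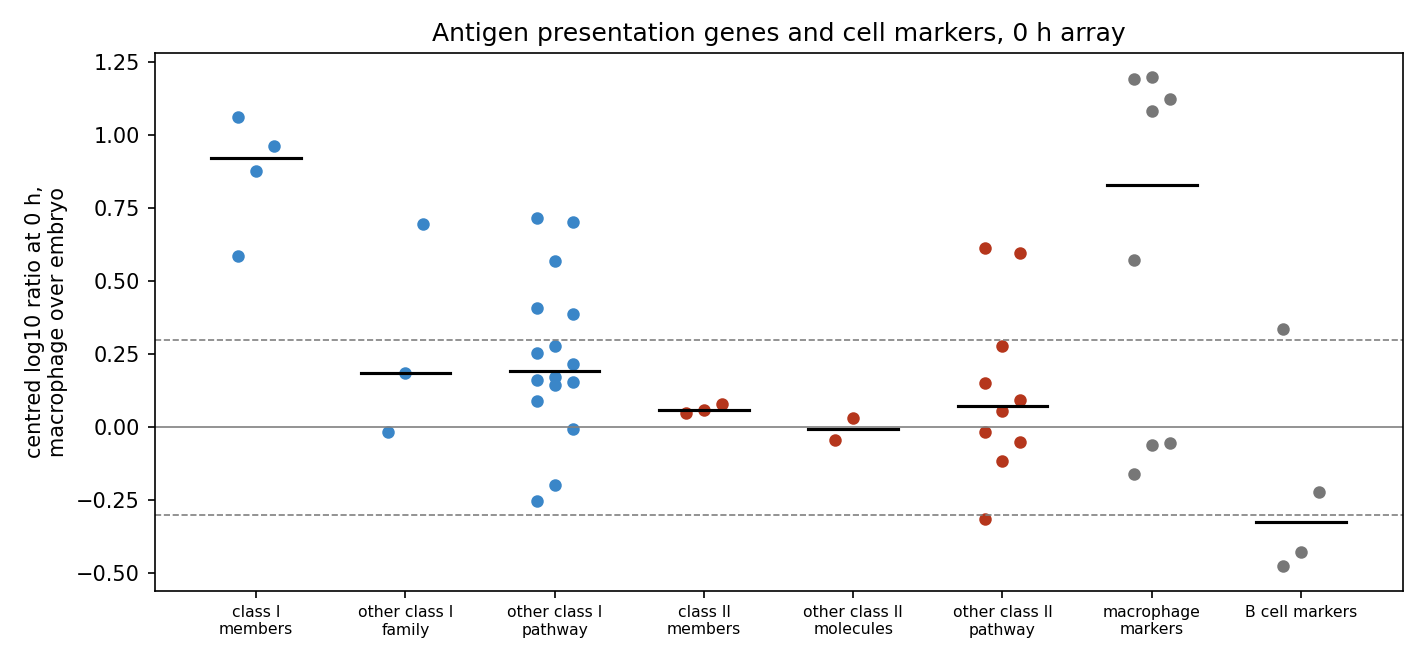
Centred log10 ratio of macrophage over embryo at 0 h, with 1 point per gene, a bar at the median of each group and dashed lines at the 2-fold rule (0.30). The 4 class I genes lie at or above 0.59 and the 3 class II genes at or below 0.08, beside medians of 0.19 for other class I pathway genes, 0.07 for other class II pathway genes, 0.83 for macrophage markers and -0.32 for B cell markers.

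Markers of other cells that carry class II were few on the array and read both above and below embryo. Of 11 B cell markers 4 were measured, and at 0 h 1 was higher than embryo (Vpreb3, 0.34) and 2 were lower (Cd79b, -0.47, and Cr2, -0.43), with a median of -0.32, where 8.99% of all genes were higher and 8.9% lower. Cd79a, without a value at 7 h, was also past 2-fold higher at 0 h and read 0.32, 0.62, 0.23 and -0.02 at 0, 0.5, 2 and 21 h. The median of the 4 was -0.48 at 21 h, when the class II mean was -0.06. Of 11 dendritic cell markers 2 were measured. Fscn1 read -0.38, -0.60, -0.59, -0.48 and -0.22 at 0, 0.5, 2, 7 and 21 h. It was past 2-fold lower on all but the last, where 8.9%, 17%, 12.9% and 8.02% of all genes were lower. Ccr7 read 0.01, 0.52, 0.12, 0.11 and -0.04 in that order. It was past 2-fold higher at 0.5 h alone, where 23.4% of all genes were. Of 12 T and NK cell markers 4 were measured, with Gzma higher at 0.42, Cd3g lower at -0.47 and a median of 0.03. The part of such cells in the class II values was not tested.

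Over the 0, 2, 7 and 21 h arrays, the genes nearest to the mean class I profile were Atf3, Gusb, BC005537, Cd53 and Ms4a6b, at a root mean square distance of 0.10 to 0.14 log units. Those nearest to the mean class II profile were Cdkn3, Kctd20, Inka1, Katna1 and Gpn1, at 0.0138 to 0.0192. The class II profile is flat near 0, where many genes lie.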

How the data were processed

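The members and gene lists were chosen with earlier results of these data known. The authors deposited 1 log10 ratio per probe and array, with the base read as 10. Base, centring, scanner, background correction, normalization and numerator dye: none of these is stated in the sources used here. Signal over background is unknown without spot intensities, and the number of arrays (5, 1 per time) limits the precision. Per the labels, each sample is 1 time after LPS.

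The table held 19828 probes. The platform annotation gave a single symbol to 14759 of them, several to 170 and none here to 4899. Of the first, 14628 were matched through the Entrez identifier to RefSeq GRCm38.p6. Only probes with 1 symbol and a value on all 5 arrays were used. Arrays were centred on their median over genes and probes of a gene were averaged. A gene counted as higher or lower at 2-fold (0.30 in log10 units). List genes were named when past this rule, otherwise as the 2 highest and 2 lowest at 0 h, in part given as counts. H2-DMb1, Ctss, Rfxank, Psmb8, Psme1, Psme3, Ctsb, Ctsh, Ifi30 and the marker genes were added after their values were seen. No test was run. The steps were tested on simulated data. Promoters were matched by symbol, for 7 of 10 members. Python 3.11.15, numpy 2.4.6, pandas 2.3.3, statsmodels 0.14.6 and matplotlib 3.10.9 were used.

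Alternatives were no centring, quantile normalization, one spread per array, removal of a trend on the mean ratio (lowess, fraction 0.3) or of a running median over 400 probe numbers, the 0.5 h array as baseline or left out of the filter, other ways to join probes or genes, class I without Tapbp, size rules of 1.5- and 3-fold, and log base 2. Using every probe of a gene, and using only the stretches where the 0.5 h array followed the others (correlation of at least 0.7), were chosen after seeing the data.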

Additional observations from a re-analysis of the deposited data

How the results depend on the processing

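Class I stood above class II in ratio against embryo on all 5 arrays under every alternative run. That gap became 1.22 at 0 h, 0.79 at 0.5 h and 1.46 at 21 h after quantile normalization, and 0.70 at 0.5 h with one spread per array. It became 0.61 at 2 h, the lowest of all, in the stretches that followed. In those stretches class I is B2m and H2-D1 and class II is H2-Aa alone. H2-Q8, Tapbp, H2-Eb1 and Cd74 drop out, so the values there also reflect a change of genes. The difference of the gap from 0 h was less stable. At 0.5 h it became 0.11 in those stretches, -0.11 with one spread, -0.43 after quantile normalization and -1.08 after trend removal. At 2 h it became -0.041 with the median over genes, -0.065 with one spread, -0.26 after quantile normalization, -0.17 after trend removal and -0.25 in stretches that followed. At 7 h it became -0.17 after quantile normalization and -0.10 after trend removal. With the 0.5 h array as baseline, the gap differed by -0.34, -0.32 and -0.28 at 2, 7 and 21 h. These are differences from 0.5 h and not from 0 h. They were bound to be negative because the gap was largest at 0.5 h. At 21 h 12 of 13 alternatives were above 0, and the other was this baseline. The H2-Q8 difference at 2 h became -0.21 and -0.074, and the Tapbp difference at 0.5 h -0.14 and -0.76, after quantile normalization and trend removal. The cause was not tested.

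Members past the rule against 0 h became 1 at 0.5 h and 0 at 2 h with a 3-fold rule, 0 at both times with base 2, 1 at 2 h with one spread or trend removal, 3 at 7 h and 2 at 21 h with a 1.5-fold rule, and 1 at 21 h with every probe or quantile normalization. Against embryo, base 2 left 1, 2, 1, 3 and 2 at 0, 0.5, 2, 7 and 21 h. Shares of all genes were computed for the 2-fold rule in the main setting only. The counts under other rules or scalings thus have no share beside them and cannot be compared with all genes. Over class values and counts, 174 of 205 alternatives kept their value within the error used, 28 moved it and 3 reversed it, and over single members 508, 33 and 4 of 545 did. Leaving out the centring cannot change class I minus class II, and other ways to join probes hardly act on members with 1 probe. The tally is therefore not a count of independent checks. No paired analysis was possible because each group held 1 array. Without spot intensities, it is unknown how far the class II values lie above background.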
